A study of Rattus norvegicus with 12 samples.

Results

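The genes of DNA replication, of the G1 and S phase cyclins and kinases and of mitosis were followed in the duodenal mucosa of swimming and sedentary rats. Of 43 genes listed for these functions, 36 had a probe named for them on the array, out of 13337 named genes measured in all. They comprised 17 of 20 replication genes, 4 of 5 G1 and S phase cyclins and kinases and 15 of 18 mitosis genes. Cdc45, Rrm1, Tk1, Cdk2, Birc5, Top2a and Mki67 had no probe named for them, so the proliferation markers Mki67 and Top2a were not analysed here. Where a gene had several probes, the brightest over the 12 arrays stood for it.

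The swimming group consisted of 6 female Sprague-Dawley rats, 9 weeks old, that swam 1 hour per day on 5 days per week for 2 weeks after a training week. The control group consisted of 6 female Sprague-Dawley rats of the same age that stayed sedentary in the pool for the 2 weeks. The water was held at 30 to 32 °C for both groups, and rats were towelled and blown dry after exercise. RNA came from cells scraped off the mucosa of a 10 cm piece of duodenum and was hybridised to Illumina rat bead arrays, 6 per group, each with its own replicate number. The scrapings are a mixture of cell types, and in such bulk RNA fewer cells of a type and less RNA per cell cannot be told apart.

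The lining of the small intestine is renewed within days from dividing cells in the crypts, while the enterocytes on the villi no longer divide. Before S phase, the origin recognition complex, Cdc6 and Cdt1 load the Mcm2-7 helicase on DNA. Kinases and the GINS complex then start the forks, where primase, polymerases and the sliding clamp Pcna copy the strands. Entry into mitosis is driven by Cdk1 with B-type cyclins and by the Polo and Aurora kinases. The spindle checkpoint then holds the cell until Cdc20 and the anaphase-promoting complex release the chromosomes. Replication genes are classic targets of E2F factors. Many mitosis genes are controlled through a CHR element, the cell cycle genes homology region, and CCAAT boxes bound by NF-Y.

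The stretches before the start sites of 6 genes are shown, because replication and mitosis genes differed in the motifs found there. They were read from the RefSeq promoter table of rat assembly GRCr8, which matched 29 of the 36 genes. Each runs 5′ to 3′ in the direction of the gene over the 150 bases before its start, and capitals mark the motifs searched. The letters searched were TTTGGCGC, TTTGCCGC, TTTCGCGC or TTTCCCGC for E2F, TTTGAA or TTCGAA for the CHR, and CCAAT, on both strands and with overlaps allowed. In the 3 replication genes that follow, the capitals are E2F motifs and CCAAT boxes.
Mcm6, chr13:42404353-42404502, minus strand: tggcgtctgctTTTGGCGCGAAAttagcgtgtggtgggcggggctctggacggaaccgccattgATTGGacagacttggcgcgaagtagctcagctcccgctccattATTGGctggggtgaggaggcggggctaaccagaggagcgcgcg
Mcm7, chr12:22163179-22163328, minus strand: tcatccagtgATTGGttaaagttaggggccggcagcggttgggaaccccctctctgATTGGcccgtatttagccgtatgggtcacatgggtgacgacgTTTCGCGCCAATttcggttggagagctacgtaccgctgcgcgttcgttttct
Gins1, chr3:160184770-160184919, plus strand: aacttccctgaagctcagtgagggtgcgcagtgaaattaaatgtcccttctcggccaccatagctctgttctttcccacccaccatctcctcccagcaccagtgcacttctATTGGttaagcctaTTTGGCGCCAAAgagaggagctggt
In the 3 mitosis genes that follow, the capitals are CHR motifs and CCAAT boxes, and in Cdk1 also an E2F motif.
Cdk1, chr20:19265143-19265292, plus strand: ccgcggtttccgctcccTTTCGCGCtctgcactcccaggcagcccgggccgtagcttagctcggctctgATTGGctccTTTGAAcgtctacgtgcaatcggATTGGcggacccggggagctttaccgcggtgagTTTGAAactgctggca
Ccnb2, chr8:79981659-79981808, minus strand: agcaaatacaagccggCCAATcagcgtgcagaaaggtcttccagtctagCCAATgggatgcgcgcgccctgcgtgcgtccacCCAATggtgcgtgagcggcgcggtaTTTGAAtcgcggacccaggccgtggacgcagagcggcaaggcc
Cdc20, chr5:137255800-137255949, minus strand: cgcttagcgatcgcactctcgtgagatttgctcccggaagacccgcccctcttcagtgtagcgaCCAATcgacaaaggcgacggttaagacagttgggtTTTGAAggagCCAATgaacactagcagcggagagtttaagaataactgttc

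An E2F motif stood in the 300-base windows, from 250 bases before to 50 after the start, of 9 of 14 replication genes (64.3%). It stood in 1 of 13 mitosis genes (7.69%), Cdk1, and in 2.25% of all 27457 genes in the table. Mcm6 and Gins1 each carried overlapping E2F motifs on both strands, and the E2F motif of Mcm7 shared a base with a CCAAT box. A CHR motif stood in 9 of 13 mitosis genes (69.2%), 2 of 14 replication genes (14.3%) and 19.5% of all genes. CCAAT boxes occurred in 9 of 14 replication genes and 9 of 13 mitosis genes, against 37.7% of all genes. Both a CHR motif and a CCAAT box were present in 7 of 13 mitosis genes (53.8%), in 1 of 14 replication genes and in 7.83% of all genes. That replication gene was Mcm7, whose CHR motif is not among the capitals shown. The genes shown above all hold the E2F or CHR motif typical of their class, which some genes of each class lack. The motifs are letter matches and not measured sites.

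Several arrays stood apart or resembled each other more than the remaining pairs did. In 3 pairs of arrays the log2 differences over 4869 bright probes had a spread of 0.077 to 0.16, and in the next most alike pair of 0.22. These pairs were control 4 with control 6, swimming 4 with swimming 6, and, across the groups, control 3 with swimming 3. Pairs within a group were counted as 1 sample in each mean ± SD, which therefore has n = 5. The fitted differences and their tests used each of the 12 arrays singly. Whether these arrays come from separate rats was not tested, and p-values measure only the spread between these samples. The array labelled swimming 5 went against its tissue label. Its mean over 13 enterocyte markers was 8.58, against 12.49 ± 0.24 in the other 11 arrays (SD), and its mean over 8 large intestine markers was 10.04, against 7.83 ± 0.18. Values without swimming 5, and likewise without control 5, are given beside the members' differences that they move by more than 1.5 times.

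Between the groups, 30 of the 36 genes averaged higher in swimming rats and 6 averaged lower, and no gene passed the test. The median fitted difference, swimming minus control, was 0.15 on the log2 scale, with a range of -0.070 to 0.45, while the median over all named genes was -0.00036. In the background, 49.8% of all named genes and 50% of those brighter than the median probe had a fitted difference above 0. By limma with Benjamini-Hochberg adjustment over all 22523 probes, 0% of probes were called at an adjusted p under 0.05, and 4.78% had an unadjusted p under 0.05. With all 12 arrays none of the 36 genes had an unadjusted p under 0.05, and their adjusted p-values lay between 0.911 and 0.995. Without swimming 3, 5 of them had one, Mcm7, Cdc6, Gins1, Cdkn3 and Ttk, and their lowest adjusted p by limma was 0.755. In that fit 927 of all 13337 named genes had one, and control 3, nearly identical to swimming 3, was kept. Without control 3 instead, 0 of the 36 genes had an unadjusted p under 0.05 by limma, and their median difference was 0.10. In none of the 36 genes did the 6 swimming arrays lie apart from the 6 control arrays, compared with 0.135% of all named genes.

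Of the replication genes, 14 of 17 averaged higher in swimming rats, with a median difference of 0.11, and 0.099 without swimming 5. Of the G1 and S phase cyclins and kinases, 3 of 4 averaged higher, with a median of 0.22, and 0.11 without swimming 5. Of the mitosis genes, 13 of 15 averaged higher, with a median of 0.24, and 0.19 without swimming 5. Control 5 decided the order of the classes: without it the median was 0.063 for mitosis and 0.082 for replication. Without swimming 5, 28 of 36 genes averaged higher, with a median of 0.13. Without control 5, the array with the lowest mitosis signal, 26 of 36 did, and the median was 0.075. With pairs averaged and swimming 5 left out, 27 of 36 did, and the median was 0.068. The median standard error of a single gene was 0.18, and the 95% interval of every gene's difference included 0.

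**Figure D1:**
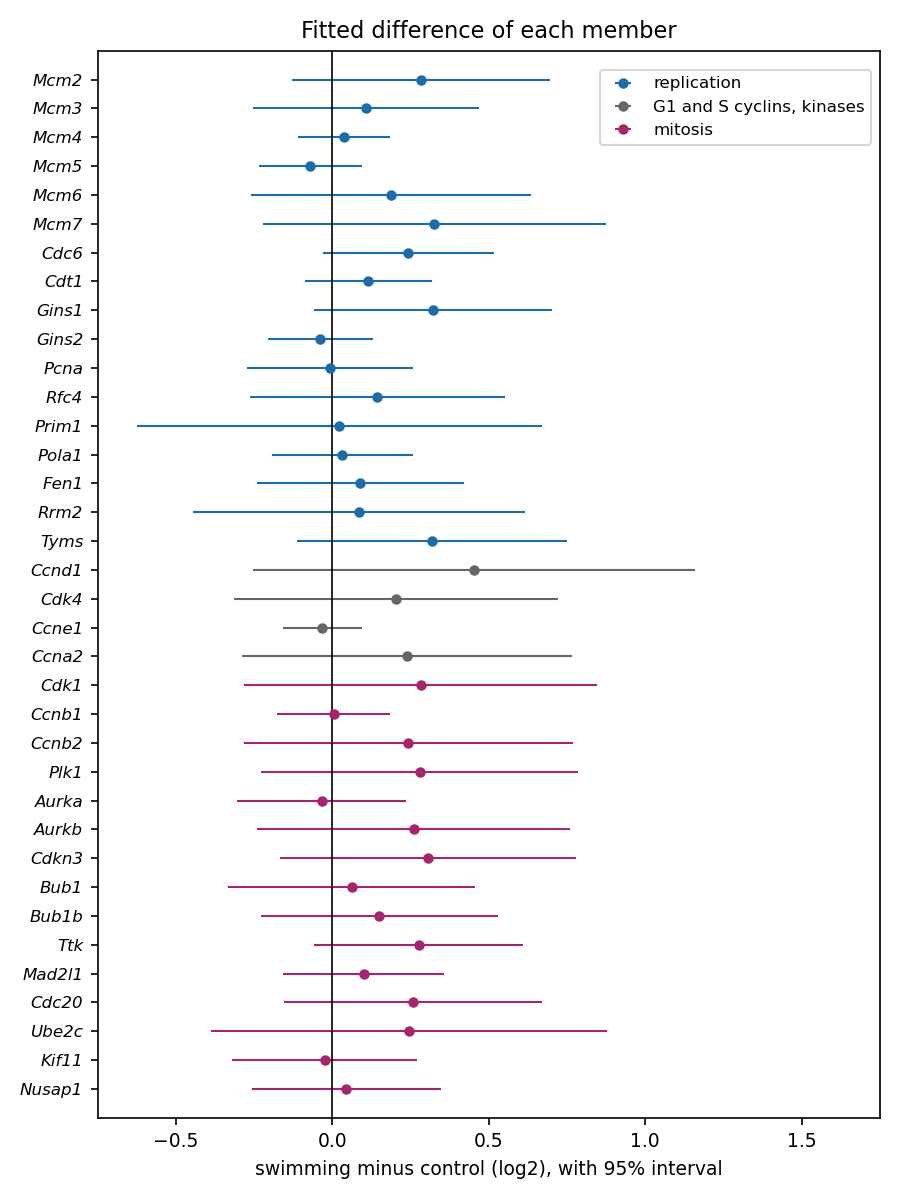
Fitted log2 difference, swimming minus control, of each of the 36 genes with its 95% interval, from limma on all 12 arrays and coloured by class. The intervals of all 36 genes include 0, and 30 of the points lie above 0.

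Of the 6 subunits of the Mcm2-7 helicase, which unwinds DNA at the fork, 5 averaged higher in swimming rats and none passed the test. Mcm7 had the largest difference of the 6 and is given array by array, although it was chosen after its values were seen. It read 8.96, 8.13, 7.77, 8.79, 9.22 and 8.84 in swimming 1 to 6, against 8.42, 8.79, 7.80, 8.44, 7.80 and 8.51 in control 1 to 6. The groups overlapped: swimming 3 lay beside control 3 and control 5 at the low end, and swimming 5 was above every other array. Mcm7 averaged 8.58 ± 0.60 in swimming rats and 8.26 ± 0.44 in control rats (SD, n = 5 each). Its fitted difference was 0.33 with a standard error of 0.25, and 0.21 without swimming 5. Mcm2 lay between 7.18 and 7.91 in swimming rats and between 6.80 and 7.86 in control rats, with a difference of 0.28 and a standard error of 0.19, and 0.18 without control 5. Mcm6 lay between 9.40 and 10.49 in swimming rats and between 9.51 and 10.21 in control rats, with a difference of 0.19 and a standard error of 0.21, and 0.099 without swimming 5, its highest array. In both genes the groups overlapped. Mcm3, at 0.11, had a difference of -0.0020 without swimming 5 and 0.069 without control 5. Mcm4 and Mcm5 varied by little in all 12 arrays, with ranges of 6.45 to 6.80 and 6.53 to 6.93, and fitted differences of 0.036 and -0.070. For Mcm4 it was 0.0035 without control 5. A second, dimmer probe for Mcm5 gave a difference of 0.000031. The Mcm4 and Mcm5 probes averaged 6.63 and 6.77 over the 12 arrays, not far above the median probe at 6.36. Their narrow ranges may therefore understate changes in RNA.

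Of the measured genes that license and start origins, 3 of 4 averaged higher in swimming rats. Cdc6, the ATPase that loads the helicase, had the lowest unadjusted p of all 36 genes. It read 6.99, 6.75, 6.54, 7.05, 7.27 and 6.81 in swimming 1 to 6, against 6.87, 6.84, 6.70, 6.29, 6.62 and 6.65 in control 1 to 6. Swimming 1, 4 and 5 lay above every control array, and swimming 3 lay below all but control 4. Cdc6 averaged 6.90 ± 0.27 in swimming rats and 6.70 ± 0.16 in control rats (SD, n = 5 each). Its fitted difference was 0.24 with a standard error of 0.13 (limma, unadjusted p = 0.0763, adjusted p = 0.911), and 0.17 without swimming 5. Gins1, a subunit of the GINS complex of the active helicase, read 7.70, 7.15, 6.75, 7.55, 7.39 and 7.29 in swimming 1 to 6, against 7.30, 7.25, 6.68, 6.96, 6.51 and 7.21 in control 1 to 6. Here too the groups overlapped, with control 3 and control 5 at the low end and swimming 1 and swimming 4 at the high end. Gins1 averaged 7.28 ± 0.35 in swimming rats and 6.97 ± 0.35 in control rats (SD, n = 5 each). The fitted difference of Gins1 was 0.32 with a standard error of 0.18 (limma, unadjusted p = 0.0899, adjusted p = 0.911), and 0.30 without swimming 5. Cdt1, the partner of Cdc6 in licensing, and Gins2 were dimmer than the median probe, which may hide or understate a change in RNA. Their differences were 0.11 and -0.039, with standard errors of 0.094 and 0.078. For Gins2 the difference was -0.059 without swimming 5 and -0.069 without control 5.

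At the fork, 4 of 5 genes averaged higher in swimming rats, all by less than 0.15 on the log2 scale. Pcna, the sliding clamp of the polymerases, was the brightest replication probe and differed little between the groups. Pcna read 12.32, 11.96, 12.19, 12.12, 12.05 and 12.01 in swimming 1 to 6, against 12.20, 12.52, 12.16, 12.19, 11.64 and 11.98 in control 1 to 6. Both its highest value, in control 2, and its lowest, in control 5, were in the control group. It averaged 12.12 ± 0.14 in swimming rats and 12.12 ± 0.31 in control rats (SD, n = 5 each), and its fitted difference was -0.0076, with a 95% interval of -0.27 to 0.26. It was 0.0032 without swimming 5 and -0.10 without control 5. Rfc4, a subunit of the clamp loader, Fen1, the flap nuclease that trims Okazaki fragments, and Pola1, the catalytic subunit of the priming polymerase, had differences of 0.14, 0.089 and 0.031, and the last was -0.0092 without swimming 5 and -0.0026 without control 5. A second, dimmer probe for Pola1 gave a difference of -0.14. Prim1, the catalytic primase subunit, had a difference of 0.022, which was -0.071 without swimming 5 and -0.097 without control 5, and its values spread over 1.62 log2 units and were lowest in swimming 3 and control 3.

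Both measured genes of nucleotide supply averaged higher in swimming rats. Tyms, the thymidylate synthase, read 8.50, 8.27, 8.47, 9.09, 9.36 and 8.80 in swimming 1 to 6, against 8.82, 8.01, 8.61, 8.18, 8.75 and 8.22 in control 1 to 6. Swimming 4 and swimming 5 lay above every control array, and the other swimming arrays lay within the control range. Tyms averaged 8.71 ± 0.44 in swimming rats and 8.48 ± 0.35 in control rats (SD, n = 5 each). The fit gave a difference of 0.32 with a standard error of 0.20 (limma, unadjusted p = 0.135, adjusted p = 0.911), and 0.20 without swimming 5. Rrm2, the small subunit of ribonucleotide reductase, lay between 7.80 and 9.07 in swimming rats and between 7.87 and 8.89 in control rats, with a difference of 0.086 and a standard error of 0.24. For Rrm2 it was 0.18 without swimming 5 and 0.0071 without control 5.

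Among the G1 and S phase genes, Ccnd1, the cyclin D1 that carries growth signals into G1, had the largest difference of all 36 genes, and swimming 5 set its size. Ccnd1 read 11.17, 10.41, 10.83, 11.27, 12.85 and 11.13 in swimming 1 to 6, against 10.77, 10.29, 10.95, 11.08, 10.77 and 11.09 in control 1 to 6. Swimming 5 stood far above the other 11 arrays, whose mean was 10.89 ± 0.32 (SD), and the remaining swimming arrays overlapped the control arrays. Ccnd1 averaged 11.29 ± 0.93 in swimming rats and 10.77 ± 0.30 in control rats (SD, n = 5 each). The fitted difference was 0.45 with a standard error of 0.33 (limma, unadjusted p = 0.190, adjusted p = 0.911), and 0.14 without swimming 5. Cdk4, the kinase partner of D-type cyclins, lay between 8.46 and 9.63 in swimming rats and between 8.39 and 9.38 in control rats, with a difference of 0.20, and of 0.091 without swimming 5 and 0.11 without control 5. Ccna2, the A-type cyclin of S phase and early mitosis, lay between 7.34 and 8.35 in swimming rats and between 6.84 and 8.29 in control rats, lowest in control 5, with a difference of 0.24 and a standard error of 0.24, and 0.065 without control 5. Ccne1, the E-type cyclin of the G1 to S transition, varied by 0.26 log2 units over the 12 arrays and had a difference of -0.033, and -0.066 without swimming 5.

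Of the 7 genes grouped here under mitotic entry, not all of which drive it, 6 averaged higher in swimming rats, with a median difference of 0.26. Ccnb2, a B-type cyclin and the brightest mitosis probe, read 10.26, 9.60, 9.71, 10.68, 10.47 and 10.80 in swimming 1 to 6, against 10.19, 10.31, 9.76, 10.28, 9.26 and 10.26 in control 1 to 6. Swimming 4, 5 and 6 lay above every control array, while swimming 2 and 3 lay below all control arrays but control 5. Ccnb2 averaged 10.15 ± 0.49 in swimming rats and 9.96 ± 0.45 in control rats (SD, n = 5 each). For Ccnb2 the fitted difference was 0.24 with a standard error of 0.24, and 0.092 without control 5. Cdkn3, a phosphatase that acts on cyclin-dependent kinases, read 9.15, 8.60, 8.12, 9.19, 9.30 and 9.09 in swimming 1 to 6, against 8.94, 9.02, 8.14, 8.70, 8.19 and 8.64 in control 1 to 6. Swimming 1, 4, 5 and 6 lay above every control array, and swimming 3 lay below every control array. Cdkn3 averaged 8.86 ± 0.49 in swimming rats and 8.59 ± 0.41 in control rats (SD, n = 5 each). Its fitted difference was 0.30 with a standard error of 0.22 (limma, unadjusted p = 0.187, adjusted p = 0.911).

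Cdk1, the kinase that starts mitosis, read 9.42, 8.86, 8.64, 9.73, 9.51 and 9.69 in swimming 1 to 6, against 9.40, 9.58, 8.63, 9.23, 8.14 and 9.16 in control 1 to 6, and was chosen for this after its values were seen. Control 5 was the lowest array, and swimming 4 and 6 were the highest. Cdk1 averaged 9.23 ± 0.46 in swimming rats and 8.99 ± 0.59 in control rats (SD, n = 5 each), with a fitted difference of 0.28 and a standard error of 0.26. Without control 5 the difference of Cdk1 was 0.11. Plk1, the Polo-like kinase, lay between 7.43 and 8.61 in swimming rats and between 7.16 and 8.18 in control rats, with a difference of 0.28 and a standard error of 0.23. Aurkb, the Aurora kinase of the chromosomal passenger complex, lay between 7.90 and 8.90 in swimming rats and between 7.47 and 8.82 in control rats, with a difference of 0.26 and a standard error of 0.23. In both kinases control 5 was the lowest array and swimming 6 the highest, and without control 5 the difference was 0.15 for Plk1 and 0.098 for Aurkb. Aurka, the Aurora kinase of the spindle poles, had a difference of -0.034, which was -0.015 without swimming 5 and -0.096 without control 5. Ccnb1, the other B-type cyclin, was dimmer than the median probe and had a difference of 0.0038, which was 0.028 without swimming 5 and 0.035 without control 5.

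All 4 spindle checkpoint genes averaged higher in swimming rats, none past the test. Ttk, the Mps1 kinase that starts the checkpoint signal, read 7.73, 7.42, 6.95, 7.51, 7.43 and 7.64 in swimming 1 to 6, against 7.49, 7.35, 6.92, 7.34, 6.68 and 7.23 in control 1 to 6. In 5 of 6 swimming arrays Ttk lay above the control mean, and swimming 3 lay near control 3. Ttk averaged 7.42 ± 0.29 in swimming rats and 7.15 ± 0.33 in control rats (SD, n = 5 each). The fit for Ttk gave a difference of 0.28 with a standard error of 0.15 (limma, unadjusted p = 0.0972, adjusted p = 0.911), 0.28 without swimming 5 and 0.18 without control 5. Bub1b, a component of the checkpoint complex, Mad2l1, the checkpoint protein that binds Cdc20, and Bub1, the kinetochore kinase, had differences of 0.15, 0.10 and 0.061. Mad2l1 was highest in swimming 5 and had a difference of 0.018 without it and 0.063 without control 5. Without control 5 the difference was 0.025 for Bub1b and -0.10 for Bub1.

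Cdc20, the activator of the anaphase-promoting complex, read 9.01, 8.29, 8.25, 9.07, 9.18 and 9.13 in swimming 1 to 6, against 8.77, 8.81, 8.20, 8.69, 8.23 and 8.68 in control 1 to 6. Swimming 1, 4, 5 and 6 lay above every control array, and swimming 2 and 3 lay near control 3 and 5 at the low end. Cdc20 averaged 8.77 ± 0.46 in swimming rats and 8.54 ± 0.30 in control rats (SD, n = 5 each), with a fitted difference of 0.26 and a standard error of 0.19 (limma, unadjusted p = 0.200, adjusted p = 0.911). Ube2c, the ubiquitin-conjugating enzyme of the same complex, had the widest spread of the mitosis genes, with a range of 1.90 log2 units from control 5 at 6.64 to swimming 6 at 8.55. Its fitted difference was 0.25 with a standard error of 0.29, and 0.040 without control 5. Kif11, the kinesin that separates the spindle poles, had a difference of -0.024, and -0.12 on a second, dimmer probe. On the brighter probe it was -0.090 without swimming 5 and -0.12 without control 5. Nusap1, a spindle microtubule protein, had a difference of 0.045, and -0.042 without control 5.

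**Figure D2:**
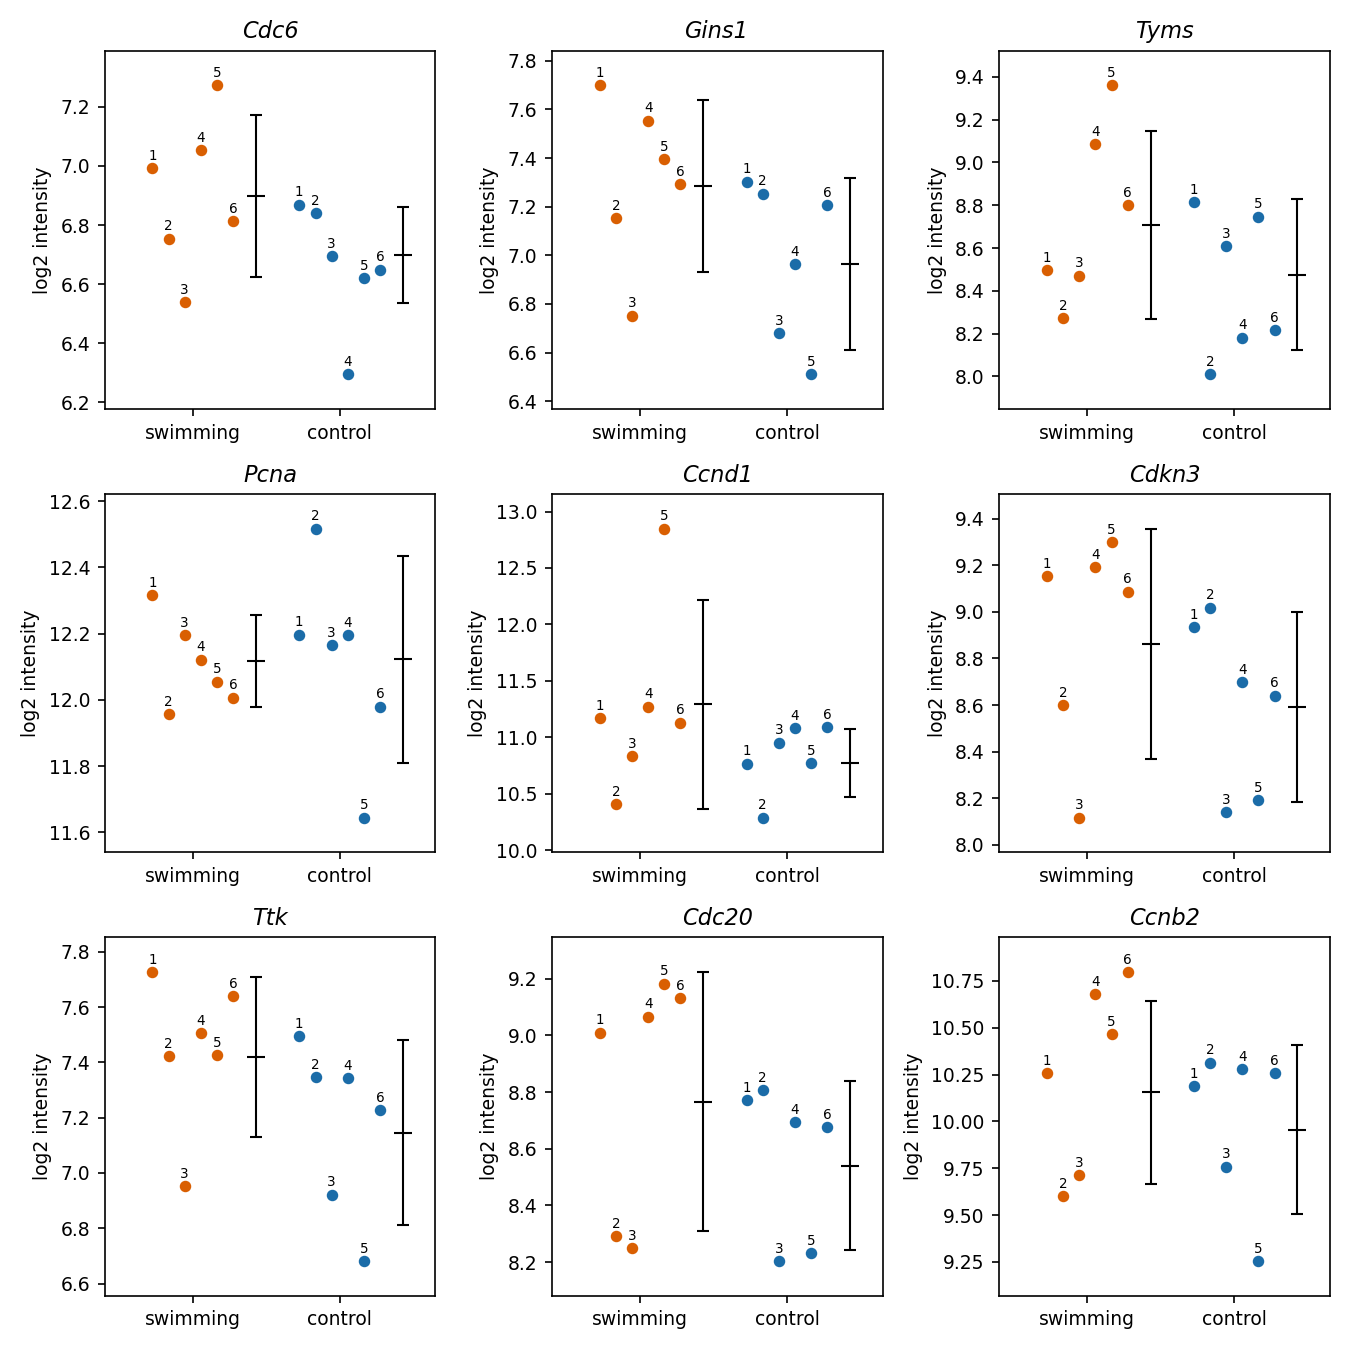
Log2 intensity of 9 genes in each array (points, numbered by array within the group), with swimming left of control, and the mean ± SD of the 5 samples counted per group (bars). In no panel do the groups lie apart, and swimming 5 stands above all other arrays for Ccnd1, at 12.85.

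Single arrays of one group spread more widely than the group means lay apart, and this spread ran in parallel in the replication and the mitosis genes. The mean over the 17 replication genes was 8.23, 7.92, 7.75, 8.34, 8.33 and 8.30 in swimming 1 to 6, against 8.16, 8.16, 7.80, 8.07, 7.79 and 8.12 in control 1 to 6. The mean over the 15 mitosis genes was 7.97, 7.60, 7.47, 8.11, 7.98 and 8.16 in swimming 1 to 6, against 7.92, 8.04, 7.50, 7.85, 7.18 and 7.80 in control 1 to 6. The same 4 arrays were lowest in both classes: control 5, swimming 3, control 3 and swimming 2. Swimming 4, 5 and 6 held the highest replication means. The group means were 8.11 ± 0.26 in swimming rats and 7.999 ± 0.19 in control rats for replication, and 7.83 ± 0.28 in swimming rats and 7.70 ± 0.35 in control rats for mitosis (SD, n = 5 each). Over all 12 arrays the means differed between the groups by 0.13 for replication and 0.16 for mitosis. Single arrays of both groups together ranged over 0.59 and 0.98. Replication ran from 7.75 to 8.34 in swimming rats and from 7.79 to 8.16 in control rats. Mitosis ran from 7.47 to 8.16 in swimming rats and from 7.18 to 8.04 in control rats. A range of single arrays is a wider measure than a difference of means.

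**Figure D3:**
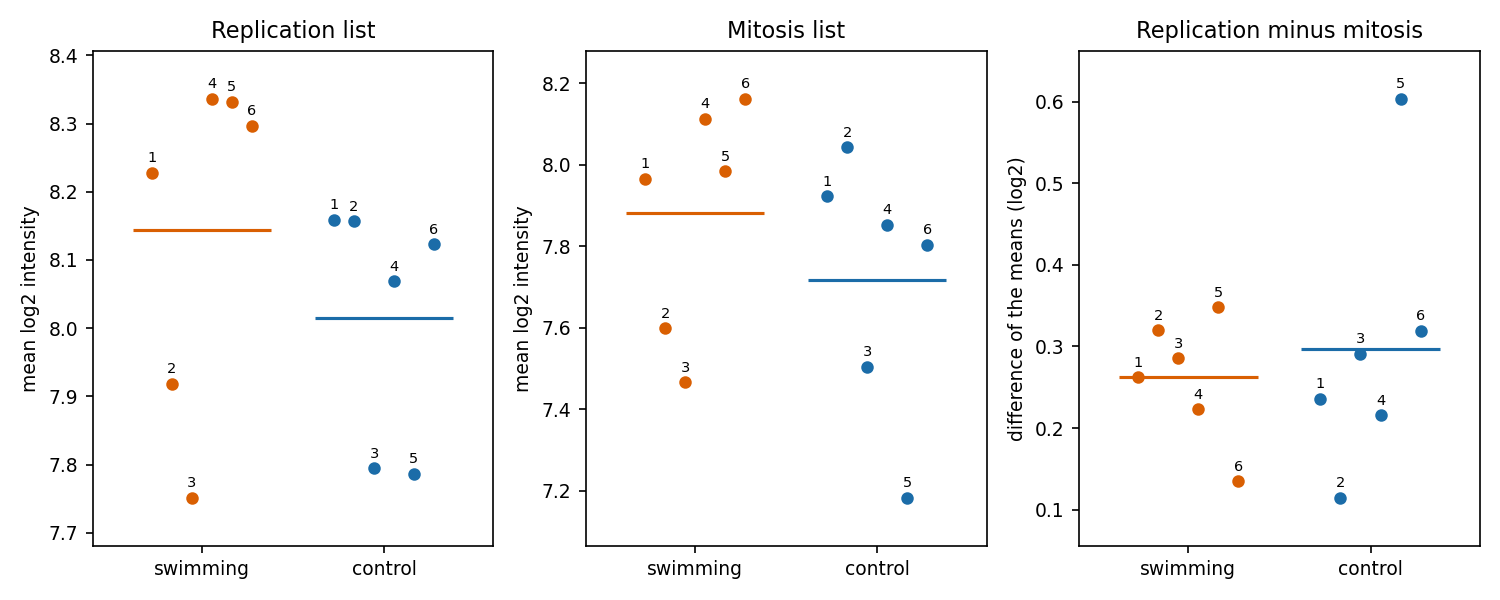
Mean log2 intensity of the 17 replication and the 15 mitosis genes in each array and the difference of these means, with swimming left of control, points numbered by array and lines at the mean of 6 arrays. Control 5, control 3, swimming 3 and swimming 2 are the lowest arrays in both classes, and control 5 lies farther below the other arrays for mitosis than for replication.

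Replication minus mitosis, read only for its change between arrays, averaged 0.28 ± 0.065 in swimming rats and 0.30 ± 0.18 in control rats (SD, n = 5 each). Over the 12 arrays this balance differed between the groups by -0.034, which was less than the spread between samples of either group, and by -0.052 without swimming 5. The balance was highest in control 5, at 0.60, where the mitosis mean was lower than in any other array, and was lowest in control 2, at 0.11, and swimming 6, at 0.13. In control 5, 10 of 15 mitosis genes had their lowest value, compared with 4 of 17 replication genes. Over 9 distinct profiles, with each near-identical pair averaged, the replication and mitosis means had a Pearson r of 0.931 and a Spearman rho of 0.85. Without swimming 5, over 8 profiles, r was 0.949 and rho 0.905. These points share their normalization and their cell mixture, so the coefficients are descriptions.

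**Figure D4:**
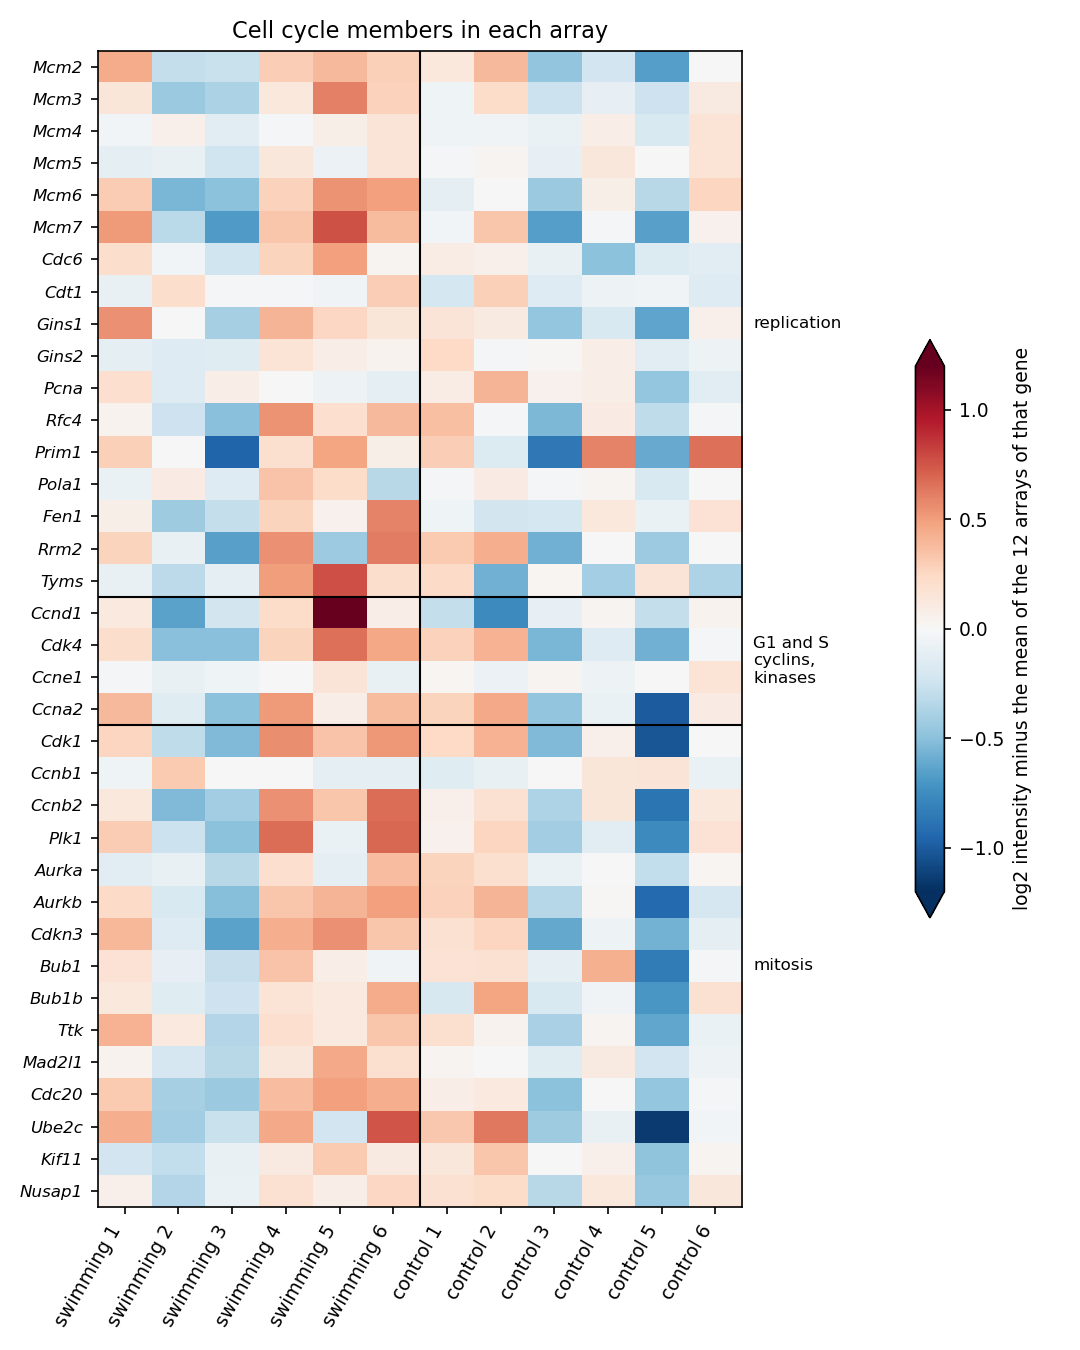
Log2 intensity of each gene in each array minus that gene's mean over the 12 arrays, with swimming left of control and genes ordered by class. Columns for control 5, control 3, swimming 3 and swimming 2 are blue in most rows and columns for swimming 4 and swimming 6 are red in most rows, whereas Ccnb1, Ccne1, Mcm4 and Mcm5 change little.

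Single genes followed the shared pattern to different degrees. Over the 8 distinct profiles without swimming 5, the correlation of each gene with the mean of the other 35 was above 0.7 in 22 of 36 genes (61.1%). Among 7837 other named genes brighter than the median probe, 837 (10.7%) reached this. It was reached by 13 of 15 mitosis genes, 7 of 17 replication genes and 2 of 4 G1 and S phase genes. Cdk1, Plk1 and Ccna2 were most like the rest, with r of 0.985, 0.979 and 0.964. Mcm2 and Mcm7 led the replication genes, with r of 0.941 each. The coefficient was -0.030 for Tyms, 0.137 for Cdt1, 0.247 for Ccnd1 and -0.0717 for Ccne1, and Ccnb1 ran against the others, at -0.682. Cdt1 and Ccnb1 are dim probes, and Ccne1 varied little. Cdk1, Ccnb2 and Cdc20, whose promoters are shown above, reached r of 0.985, 0.957 and 0.961, and Mcm6, Mcm7 and Gins1 reached 0.831, 0.941 and 0.885. Of the other replication genes with an E2F motif, Mcm2 and Mcm3 had 0.941 and 0.849. Mcm5, Cdt1, Pola1 and Tyms, also with one, had 0.479, 0.137, 0.480 and -0.030. Among genes with none of the motifs, Cdk4, Bub1, Rfc4 and Aurka had 0.942, 0.866, 0.852 and 0.806, and Fen1 and Ccne1 had 0.570 and -0.0717. A relation of motifs to these coefficients was not tested.

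The array labelled swimming 5, whose enterocyte markers were far below those of the other arrays, was not low in cell cycle genes. Swimming 5 was below all other arrays in none of the 36 genes, compared with 22.1% of named genes brighter than the median probe. It was above all others in 10 of 36, and in 26.7% of those named genes, so that this count was near the background. The 10 were Mcm3, Mcm6, Mcm7, Cdc6 and Tyms among the replication genes, Ccnd1 and Cdk4 among the G1 and S phase genes, and Cdkn3, Mad2l1 and Cdc20 among the mitosis genes. Tyms read 9.36 in swimming 5, against 8.52 ± 0.33 in the other 11 arrays (SD). Mcm7 read 9.22 there, against 8.39 ± 0.45 (SD), and Mcm3 read 7.54, against 6.88 ± 0.25 (SD). Rrm2 read 8.01 there, within the range of the other arrays and below their mean of 8.49 ± 0.45 (SD).

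None of the other genes measured in the same pathways passed the test. Of 42 further replication genes listed, 37 were measured. Of these, 29 averaged higher in swimming rats, 1 had an unadjusted p under 0.05, and the median difference was 0.043. The 3 genes with the smallest unadjusted p among brighter probes were Gins3, another GINS subunit, Timeless, a protein of the fork protection complex, and Nasp, a histone chaperone, with differences of 0.25, 0.26 and 0.30. Orc4, a subunit of the origin recognition complex that was picked after its values were seen, had the lowest difference, -0.19. Without swimming 5, 20 of the 37 averaged higher, with a median of 0.023, beside 48.1% of all named genes. Of 56 further mitosis genes listed, 39 were measured. Of these, 36 averaged higher, 3 had an unadjusted p under 0.05, and the median was 0.18. The 3 with the smallest unadjusted p were Cenpf, a kinetochore protein, Kif2c, a kinesin that takes microtubules apart, and Dlgap5, a spindle protein, with differences of 0.18, 0.26 and 0.43. Incenp, of the chromosomal passenger complex and picked after its values were seen, had the lowest difference, -0.083. Without swimming 5, 34 of the 39 averaged higher. Of 29 regulators of the cycle listed, 20 were measured and 9 averaged higher, with a median of -0.027. Among them Cdkn1a, the p21 inhibitor, picked after its values were seen, had the lowest difference, -0.32. It read 8.26 in control 5, the array with the lowest mitosis mean, and a relation between these values was not tested. In the remaining arrays Cdkn1a lay between 6.69 and 7.45, and its difference was -0.14 without control 5. Wee1, the kinase that restrains Cdk1, had a difference of 0.39 with a standard error of 0.22.

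Markers of other cells also differed between arrays and groups. Of 17 crypt markers listed, 12 were measured, 6 averaged higher in swimming rats, and Lgr5, the stem cell receptor, was dimmer than the median probe. The crypt mean ranged from 7.15 to 7.82 in swimming rats and from 7.17 to 7.33 in control rats. Swimming 5 held the highest value, and without it the highest was 7.46. Of the 12 crypt markers, 3 lay above all other arrays in swimming 5 and 9 lay within their range. Among named genes brighter than the median probe, 26.7% lay above. Prom1, picked after its values were seen, read 13.77 in swimming 5, against 9.31 ± 0.49 in the other 11 arrays (SD). The correlation of the crypt mean with the mean of the 36 genes was 0.685 over 9 distinct profiles and 0.782 over 8 without swimming 5. The goblet mean over 4 of 7 markers ranged from 13.15 to 13.94, in swimming 5, in swimming rats and from 13.16 to 13.94 in control rats, and the coefficients were 0.842 and 0.811. Enterocyte, lymphocyte and pancreatic markers had negative coefficients, of -0.422, -0.568 and -0.489, and of -0.254, -0.469 and -0.445 without swimming 5. For stroma, smooth muscle and Paneth markers the coefficients were 0.290, 0.428 and 0.127, and 0.362, 0.436 and 0.632 without swimming 5. Pancreatic enzyme markers, 13 of 15 measured, averaged 10.44 in swimming 2, 9.38 in swimming 3 and 9.41 in control 3, arrays with low cell cycle means. They averaged 7.58 in swimming 1 and 6.40 to 6.69 in the other 8 arrays, including 6.55 in control 5, the lowest array for mitosis. All 13 averaged higher in swimming rats, with a median difference of 0.84, and of 1.12 without swimming 5. Of the stroma markers, 10 of 10 measured averaged higher, with a median of 0.27, and 0.35 without swimming 5. The stroma mean ranged from 7.36, in swimming 5, to 8.11 in swimming rats and from 6.77 to 8.09 in control rats. Of the red blood cell markers, 0 of 7 averaged higher, 3 had an unadjusted p under 0.05, and the median was -0.12. The red blood cell mean ranged from 7.16 to 8.14 in swimming rats and from 8.03 to 8.54 in control rats. Its lowest value was in swimming 5, and without that array the lowest was 7.78. No marker in these lists was called by limma after adjustment. The part of these markers in the differences of the cell cycle genes was not tested.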

How the data were processed

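Messenger RNA was measured on single-colour Illumina arrays, 6 of swimming and 6 of control rats, grouped by sample title. The authors' deposited raw table holds an average intensity per probe, per the file headers, with array medians of 62.7 to 88.8. A second deposited table holds processed intensities of the same arrays, with a median of 16.0 in each. The processing behind it was not given in the sources used here. Raw intensities were background-corrected (normexp, offset 50), quantile-normalized, put on log2 and tested for all 22523 probes with limma 3.58.1 in R 4.3.3 (two-sided, Benjamini-Hochberg). On simulated data this recovered 34.3%, 80.6% and 95.5% of probes changed by 0.5, 1 and 2 log2, with 8 false calls. The simulated arrays were independent, and only probes brighter than the median probe were changed. No near-identical arrays and no array standing apart were simulated, so these rates cannot be taken as the power of the present data. Of the probes, 13793 had a symbol in the platform annotation, and 13752 matched the RefSeq gene table by identifier. Promoters came from RefSeq (GRCr8). Per-array values were given for the members with the smallest unadjusted p of each class (3 replication, 3 mitosis, 1 G1 or S phase gene), the brightest of each class and Pcna, plus Mcm7 and Cdk1. The members, lists and tests were chosen with earlier results of these data known. The number of arrays limits the precision. Alternatives changed the background correction, normalization, source table, filter, moderation, replicate block, probe choice and samples.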

Additional observations from a re-analysis of the deposited data

Results flagged for a closer look

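Ccnb1, the B-type cyclin whose probe was dimmer than the median probe, had a swimming sample far from the others. Swimming 2 read 6.55 on the log2 scale, the next swimming sample 6.24 and the lowest 6.12, so that the gap was 0.713 of the range, just above the limit of Dixon's test for 5 samples. Of 78 groups of values examined in this way, 1 stood out, and chance alone does this in about 1 of 20.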

How the results depend on the processing

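Under 23 ways of fitting, 0 probes passed the adjusted p. Over 24 settings, 26 to 34 of the 36 members averaged higher in swimming rats, the members' median difference ran from 0.068 (pairs averaged, without swimming 5, a setting chosen after seeing the data) to 0.26 (median scaling, which moved the median of all named genes to 0.023), that of replication from 0.038 to 0.24, that of mitosis from 0.063 to 0.33, and the balance of replication minus mitosis between the groups from -0.071 to 0.027. The balance was above 0 only without control 5. The members' median was 0.075 without control 5, 0.091 without swimming 6 and 0.24 without swimming 3. With the replicate number as a block, 0 probes were called, 1052 had an unadjusted p under 0.05, and the members' median stayed at 0.15. Same-numbered arrays deviated together for number 3 (r = 0.73), the near-identical pair. For numbers 1, 2, 4, 5 and 6, r was 0.00099, -0.018, 0.15, -0.023 and 0.25. The labels do not say whether the numbers pair rats, and these correlations cannot decide it. Of the members, 15 changed sign under some setting, 21 under none, and none was called under any. Without swimming 3, 5 members had an unadjusted p under 0.05 by limma, beside 927 of 13337 named genes. Under some setting 6 members had one, but this count is given without its share over all named genes and cannot be read as a result. Median scaling gave Pcna 0.088, Ccne1 0.027, Aurka 0.017 and Kif11 0.13, and cyclic loess gave Pcna 0.016. The authors' processed values gave Ccnb1 -0.0086, and the mean of all probes gave Pola1 -0.055. Pairs averaged gave Rrm2 -0.014. The restricted comparison (7 samples, without swimming 5 and the pair across groups) gave Mcm3 -0.015, Pcna 0.0015 and Nusap1 -0.044. Pairs averaged without swimming 5 gave Mcm3 -0.054, Pcna 0.011, Pola1 -0.010, Cdk4 -0.0013 and Mad2l1 -0.015. Leaving out each array in turn gave -0.11 to 0.030 for Aurka, -0.10 to 0.15 for Bub1, -0.058 to 0.035 for Ccnb1, -0.021 to 0.18 for Fen1, -0.076 to 0.0062 for Gins2, -0.12 to 0.041 for Kif11, -0.0020 to 0.21 for Mcm3, -0.042 to 0.12 for Nusap1, -0.10 to 0.073 for Pcna, -0.033 to 0.10 for Pola1, -0.15 to 0.22 for Prim1 and -0.029 to 0.22 for Rrm2. The cause of these changes was not tested. A mitosis list without Top2a and Mki67 was not run, because neither had a named probe. Signal over background limits the dim members Cdt1, Gins2 and Ccnb1, and also members not far above the median probe, such as Nusap1, Pola1, Mcm4 and Ccne1.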
